A study of Mus musculus with 4 samples.

Results

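AMP-activated protein kinase (AMPK) was followed through the transcripts of its 7 subunit genes, of 2 kinases that activate it, and of the coactivator Ppargc1a. The 10 genes (Prkaa1, Prkaa2, Prkab1, Prkab2, Prkag1, Prkag2, Prkag3, Stk11, Camkk2 and Ppargc1a) were chosen by name, from 22911 genes named on the array, and were read by 17 of its 56605 gene probes. The RNA came from pancreatic islet cells of 60-week-old C57BL/6 mice, 4 littermates labelled as male, that were dispersed and treated ex vivo for 24 h at 10 μM. Cells of 2 samples received MOTS-c, a peptide encoded in the mitochondrial genome, and cells of 2 samples received a scrambled peptide as the control. Each sample was hybridized to its own one-color Agilent array, and the labels number the scrambled arrays 1 and 2 and the MOTS-c arrays 2 and 3. The preparations held all cells of handpicked islets, so no value belongs to 1 cell type.

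AMPK is a heterotrimer that senses the energy state of the cell. Prkaa1 and Prkaa2 encode the alternative catalytic alpha subunits, Prkab1 and Prkab2 the beta subunits, which act as scaffold and bind glycogen, and Prkag1, Prkag2 and Prkag3 the gamma subunits, which bind AMP, ADP and ATP. Stk11 encodes LKB1, which phosphorylates the activation loop when AMP is high, Camkk2 encodes a kinase that phosphorylates the same site when calcium rises, and Ppargc1a encodes PGC-1alpha, a coactivator of mitochondrial genes that AMPK acts on. In muscle the alpha2 and gamma3 forms are prominent, and in beta cells AMPK is known as a regulator of metabolism and insulin secretion. MOTS-c has been linked to AMPK in other tissues and, by the authors of these data, in a beta cell line. The questions here are thus which forms islet cells transcribed and whether their transcripts differed between MOTS-c and scrambled. The arrays measured transcripts and not the phosphorylation through which AMPK is activated.

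The promoters of 3 members that differed in detection are shown: Prkaa1 was read well above background on every array, and Prkaa2 and Ppargc1a on none. Whether detection depends on these sequences was not tested. Each line gives the 250 bases before the RefSeq start of the gene on assembly GRCm38.p6, 5′ to 3′ on the strand of the gene, with every CG in capitals. The windows are chr15:5143611-5143860 on the plus strand for Prkaa1, chr4:105109899-105110148 on the minus strand for Prkaa2, and chr5:51567726-51567975 on the minus strand for Ppargc1a.
Prkaa1: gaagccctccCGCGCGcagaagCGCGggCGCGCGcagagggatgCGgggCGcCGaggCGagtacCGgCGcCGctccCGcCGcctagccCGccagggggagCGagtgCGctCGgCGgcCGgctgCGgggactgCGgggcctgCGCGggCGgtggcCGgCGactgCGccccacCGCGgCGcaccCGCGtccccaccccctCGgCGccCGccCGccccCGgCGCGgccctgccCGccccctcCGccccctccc
Prkaa2: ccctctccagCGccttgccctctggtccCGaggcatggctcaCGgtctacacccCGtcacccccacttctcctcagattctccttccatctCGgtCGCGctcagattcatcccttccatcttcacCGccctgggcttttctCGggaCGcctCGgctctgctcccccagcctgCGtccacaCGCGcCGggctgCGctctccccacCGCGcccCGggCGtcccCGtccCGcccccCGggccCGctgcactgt
Ppargc1a: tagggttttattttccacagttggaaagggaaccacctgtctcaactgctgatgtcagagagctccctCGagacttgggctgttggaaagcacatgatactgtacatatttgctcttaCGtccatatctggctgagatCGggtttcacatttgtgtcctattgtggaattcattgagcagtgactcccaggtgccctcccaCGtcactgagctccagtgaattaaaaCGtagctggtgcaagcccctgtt

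The Prkaa1 window held 45 CG, that of Prkaa2 held 24 and that of Ppargc1a held 5. Over all 32851 windows of the same length in the table the median was 6 CG. It was 14 CG (quartiles 7 and 22) in 14911 windows of genes detected on all 4 arrays, and 3 CG (quartiles 1 and 6) in 5949 windows of genes detected on none. The Prkaa2 window was thus as rich in CG as those of the detected members Prkab1 and Stk11, which each held 24, although no Prkaa2 probe was detected. The other members held 18 (Prkab2), 12 (Prkag1), 9 (Prkag3) and 32 (Camkk2), and the 3 starts of Prkag2 held 34, 4 and 23. The letters TGACG, the half-site of the cAMP response element, stood on either strand in the windows of Prkaa2, Prkag1, Stk11 and Ppargc1a. The share was 17.8% over all windows, 25.1% for genes detected on all 4 arrays and 10.9% for genes detected on none. Such matches describe letters and not bound sites.

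Of the 10 genes, 8 had at least 1 probe well above background on all 4 arrays, the flag that Feature Extraction sets when a spot clearly exceeds its background, and 64.6% of all named genes did. The detected subunit transcripts were alpha1, beta1, beta2, gamma1 and gamma2, and weakly gamma3, together with both upstream kinases. Every probe of the gene met this for 7 genes, Prkag3 being the exception. Signals of different probes depend on the probe, so the ratios of a spot to its local background that follow say how clearly a transcript was detected and do not rank the genes.

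Among the catalytic subunits, the spot of the single Prkaa1 probe, A_51_P158922, exceeded its surroundings 102 to 114 times on each array. Both Prkaa2 probes, A_55_P2506730 and A_55_P2745129, were well above background on 0 of 4 arrays. Their spots lay at 0.944 to 1.54 and at 0.810 to 0.944 times the local background, with the highest value on scrambled replicate 2. The alpha2 transcript was therefore not detected by these probes in either group, and a level too low for these probes would look the same.

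Among the beta subunits, the Prkab1 probes were at 52.1 to 70.2 and at 23.1 to 33.5 times background, and the Prkab2 probe, A_52_P126266, was at 12.8 to 17.1 times. Among the gamma subunits, Prkag1 (A_55_P2848492) was at 564 to 697 times background and Prkag2 (A_55_P2013296) at 153 to 203 times. The 3 probes of Prkag3 were well above background in 9 of 12 pairs of probe and array, yet their spots exceeded the local background by a factor of only 1.30 to 1.68. Its deposited log2 signals of 3.25 to 5.16 lay near the lowest signal that any spot well above background reached, which was 3.72 to 4.11 on the 4 arrays. The values of Prkag3 are thus readings close to background.

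Of the upstream kinases, Stk11 (A_55_P2166399) was at 68.8 to 86.0 times background. The 3 Camkk2 probes ranged from 5.54 to 223 times, all well above background on every array. The brightest of them, A_55_P2329923, is annotated to another RefSeq transcript than the other two. The Ppargc1a probes, A_51_P279038 and A_55_P2745394, were well above background in 0 of 8 pairs of probe and array, at 0.810 to 1.16 times the local background, with deposited log2 signals of 1.61 to 2.63. Of the related coactivators, Ppargc1b also had no probe well above background on any array, and Pprc1 was detected on all 4.

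**Figure D1:**
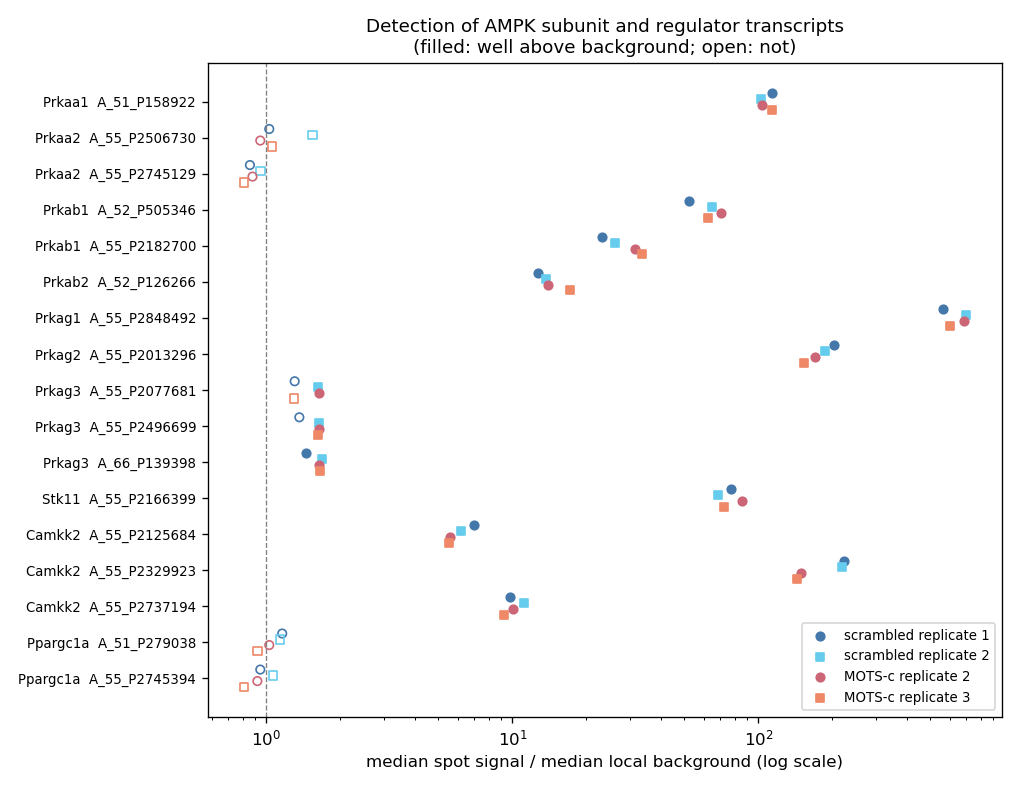
The horizontal axis gives the median spot signal divided by the median local background on a log scale, for each of the 17 member probes and each array; filled symbols were well above background and open symbols were not. Both Prkaa2 probes and both Ppargc1a probes lie around a ratio of 1 with open symbols only, the Prkag3 probes lie between 1.30 and 1.68, and all other probes lie at 5.54 or higher.

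The tissue label was checked against markers. Of 10 islet endocrine markers, 8 were well above background on all 4 arrays, with Ins1 at 7426 to 8861, Ins2 at 8378 to 12955 and Gcg at 1482 to 1658 times background. The exceptions, Ppy and Slc2a2, were on 3 arrays each and are named after their values were seen. Of 8 striated muscle markers, whose tissue carries the alpha2 and gamma3 forms, 2 were well above background on all 4 arrays. These were Actn3 at 2.88 to 3.42 and Tnnt3 at 2.00 to 2.77 times background. Acta1 was well above background on 2 arrays and Myh4 on 1, and Ckm, Myh1, Myh2 and Mb were on none. The share of gene spots well above background was 61.6% to 65.0% per array, and 0 were saturated. MOTS-c replicate 3 stood apart from the other arrays: over all tested probes its median absolute log2 difference was 0.24 to scrambled replicate 2 and 0.19 to each of the other two, against 0.16 between the scrambled arrays. The labels give male animals, but 7 probes of 4 Y-linked genes were well above background in 0 of 28 pairs of probe and array, and Xist was so on all 4 arrays.

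The comparison of MOTS-c with scrambled asked whether the transcripts of AMPK and its kinases differed after 24 h. No member did at an adjusted p under 0.05 (limma). The values that lay furthest apart were a lower Camkk2 probe, at 0.751 of the scrambled level, and a higher Prkab1 probe, at 1.27 times the scrambled level, and neither passed the adjustment. Of the 17 probes, 13 probes of 8 genes were well above background on at least 2 arrays and were tested, among 35087 tested probes in all. Levels are log2 intensities after quantile normalization, and a log2 fold change is MOTS-c minus scrambled. Of the 13 probes, 0 were called at an adjusted p under 0.05, against 0% of all probes, for which the smallest adjusted p was 0.474. At an unadjusted p under 0.05 there were 2 of 13, against 7.85% of all probes. A change of at least 1.5-fold was reached by 0 of 13, against 5.24%. With 2 arrays against 2, an exact two-sided permutation test of a single value cannot give a p below 0.333.

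Camkk2 was the member with the largest difference among the followed probes, the brightest tested probe of each gene. Its probe A_55_P2329923 read 12.88 and 12.75 on scrambled replicates 1 and 2 and 12.39 and 12.41 on MOTS-c replicates 2 and 3. The MOTS-c values were the lower pair, and the gap between the groups exceeded the spread within either. The means were 12.81 ± 0.10 and 12.40 ± 0.01 (SD, n = 2 each), and the log2 fold change was -0.41 (SE 0.13, 95% interval -0.74 to -0.08), with an unadjusted p of 0.024 and an adjusted p of 0.560 (limma). Leaving out any 1 of the 4 arrays moved it to between -0.48 and -0.34 and the unadjusted limma p to between 0.059 and 0.130, with 1 group then resting on a single array that was assumed to vary like the other group. The sign thus stayed the same in each fit. How much of the rise in p came from having fewer arrays was not tested. The second probe, A_55_P2125684, read 7.69 and 7.38 against 7.35 and 7.21, again without overlap though by a small margin, with a log2 fold change of -0.26 (SE 0.16, limma adjusted p = 0.764). The third, A_55_P2737194, read 8.22 and 8.42 against 8.22 and 8.07, and its groups overlapped (log2 fold change -0.18, SE 0.14, limma adjusted p = 0.816). All 3 probes of the calcium-dependent kinase were thus lower on average with MOTS-c, by amounts that did not pass the test.

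Stk11, which encodes the activating kinase LKB1, read 11.34 and 11.33 with scrambled and 11.33 and 11.26 with MOTS-c. The groups were separate, but their nearest values both round to 11.33. Its log2 fold change was -0.04 (SE 0.12), and the 95% interval of -0.36 to 0.27 corresponds to 0.780 to 1.21 times the scrambled level (limma adjusted p = 0.954).

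The catalytic alpha1 subunit, Prkaa1, read 11.98 and 11.77 with scrambled and 11.91 and 12.09 with MOTS-c. The groups overlapped, since scrambled replicate 1 lay above MOTS-c replicate 2. The log2 fold change was 0.12 (SE 0.15), and the 95% interval of -0.27 to 0.52 corresponds to 0.830 to 1.43 times the scrambled level (limma adjusted p = 0.879). Leaving out scrambled replicate 2 gave 0.02, and leaving out scrambled replicate 1 gave 0.23. Prkaa2 was not tested because neither probe passed the filter.

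All 3 probes of the beta subunits had higher values with MOTS-c, without passing the test. For Prkab1, the followed probe A_52_P505346 read 11.06 and 11.15 with scrambled and 11.29 and 11.25 with MOTS-c (log2 fold change 0.17, SE 0.12, limma adjusted p = 0.792). The second probe, A_55_P2182700, read 9.72 and 9.78 against 10.04 and 10.16. For both probes the MOTS-c arrays lay above the scrambled arrays, with a larger gap for the second one. Its log2 fold change was 0.35 (SE 0.12, 95% interval 0.02 to 0.68), with an unadjusted p of 0.042 and an adjusted p of 0.613 (limma), and with any 1 array left out, under the same assumption, the log2 fold change was 0.29 to 0.40 and the unadjusted limma p 0.064 to 0.168. Prkab2 read 8.89 and 8.76 with scrambled and 8.95 and 9.19 with MOTS-c. The groups did not overlap, by a margin smaller than the spread within either group, and MOTS-c replicate 3 was the highest. The log2 fold change was 0.24 (SE 0.15, limma adjusted p = 0.754), and it was 0.12 to 0.36 with 1 array left out.

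Among the gamma subunits, Prkag1 read 14.51 and 14.55 with scrambled and 14.65 and 14.57 with MOTS-c (log2 fold change 0.08, SE 0.12, limma adjusted p = 0.916). Prkag2 read 12.98 and 12.84 against 12.76 and 12.71 (log2 fold change -0.17, SE 0.13, limma adjusted p = 0.792). The groups did not overlap for either gene, with MOTS-c above for Prkag1 and below for Prkag2, but the margin was smaller than the spread within a group. For Prkag3 the followed probe A_66_P139398 read 5.05 and 5.16 against 5.18 and 5.02, with overlap and a log2 fold change of 0.00 (SE 0.13, limma adjusted p = 0.998). The other two probes of Prkag3 varied within the groups by up to 0.98 log2 units and overlapped too, with log2 fold changes of 0.28 for A_55_P2496699 and -0.08 for A_55_P2077681. Ppargc1a was not tested.

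**Figure D2:**
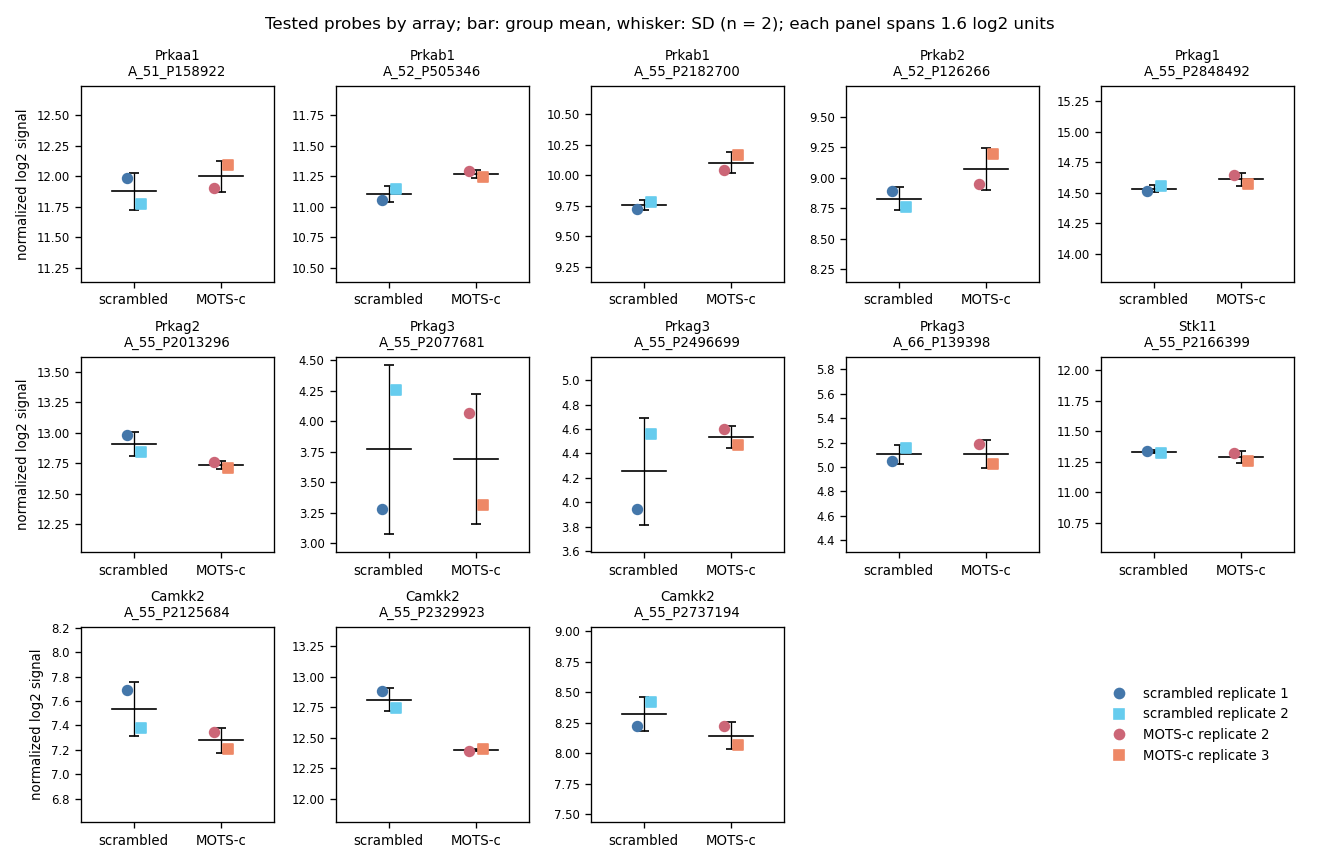
Normalized log2 signal of the 13 tested probes on each array, with a bar at the mean of each group and a whisker of 1 SD (n = 2); each panel has its own vertical range of equal width. The groups are furthest apart relative to their spread for Camkk2 A_55_P2329923 (12.88 and 12.75 against 12.39 and 12.41) and Prkab1 A_55_P2182700 (9.72 and 9.78 against 10.04 and 10.16), and the Prkag3 probes scatter within the groups.

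Over the 13 tested probes, the groups did not overlap for 8, against 38.0% of all probes. MOTS-c was lower in 4 of these (2 Camkk2 probes, Prkag2 and Stk11), against 18.6% of all probes, and higher in 4 (2 Prkab1 probes, Prkab2 and Prkag1), against 19.4%. A log2 fold change below 0 was found for 6 of 13, against 47.1%. The median log2 fold change was 0.04 over the followed probes and 0.00 over all 13 member probes, against 0.01 over all probes tested. The members thus did not move in 1 direction. The 95% interval lay within 1.5-fold of no change for 7 probes: those of Prkaa1, Prkag1, Prkag2 and Stk11, Prkab1 A_52_P505346, Prkag3 A_66_P139398 and Camkk2 A_55_P2737194. For the other 6 it reached beyond 1.5-fold in at least 1 direction, so a change of that size is within their error. Prkag3 A_66_P139398 lay at 1.45 to 1.68 times its local background, so its interval does not bound a change of that transcript. The other Prkag3 probes had intervals of 0.785 to 1.87 and 0.438 to 2.05 times the scrambled level.

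**Figure D3:**
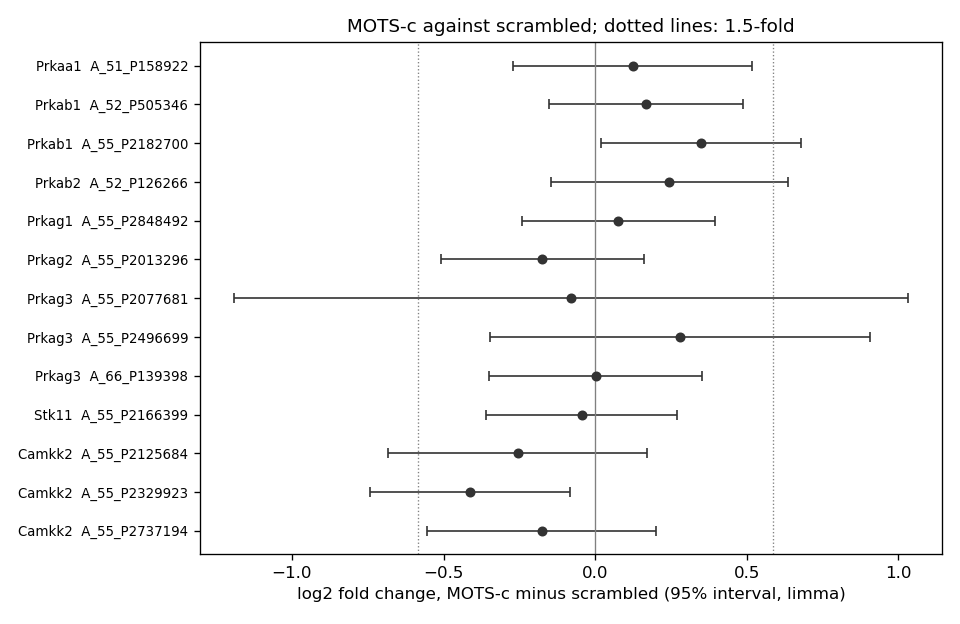
Log2 fold change of MOTS-c against scrambled for each of the 13 tested probes (point) with its 95% interval from limma (bar); dotted lines mark 1.5-fold. The intervals of Camkk2 A_55_P2329923 (-0.74 to -0.08) and Prkab1 A_55_P2182700 (0.02 to 0.68) do not reach 0, and no point lies beyond 1.5-fold.

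Markers of other cell types were read beside this comparison. The summed deposited signal of 9 acinar markers was 3717 and 3748 on the scrambled arrays and 2152 to 2644 on the MOTS-c arrays, without overlap of the groups. Of these markers 3 were well above background on all 4 arrays, and the digestive enzyme genes Amy2a5, Prss1, Prss2 and Pnlip were on none. The bright one among them, the elastase gene Cela1, at 50.3 to 92.1 times background, weighs most in such a sum of linear signals. Its log2 fold change was -0.76 (SE 0.16, limma adjusted p = 0.499). Cela2a and Cel, at 2.06 to 2.94 and 3.23 to 4.42 times background, had log2 fold changes of -0.42 and -0.14, and their groups overlapped. The summed signals of the islet endocrine, ductal, endothelial, macrophage, mesenchymal, striated muscle and Schwann cell lists overlapped between the groups. The part of the acinar signal in the values of Camkk2 and the subunits was not tested. In such bulk samples, fewer cells of a type and less RNA per cell cannot be told apart.

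The wider pathway was read from 4 lists with 62 genes, each followed through its brightest tested probe. Of these, 61 were tested and 0 passed an adjusted p under 0.05, against 0% of all probes. A change of at least 1.5-fold was reached by 0, against 5.24% of all probes, a share that takes in dimmer probes too. At an unadjusted p under 0.05 there was 1, Nuak2, against the 7.85% of all probes. The groups did not overlap for 11 genes that were higher and 13 that were lower with MOTS-c, against 19.4% and 18.6% of all probes. The median log2 fold change was 0.03, against 0.01 over all probes tested.

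The first list held 16 upstream regulators, the partners of LKB1, other kinases, phosphatases, sestrins and the folliculin complex. All 16 were detected and tested, with 7 higher and 1 lower without overlap, against 19.4% and 18.6% of all probes, and a median log2 fold change of 0.11. The highest were Ppm1e, a phosphatase that acts on AMPK, at 0.39 (SE 0.22), and Strada, the pseudokinase partner of LKB1, at 0.28 (SE 0.13). Ppm1e read 9.47 and 9.16 against 9.47 and 9.95, so its groups overlapped, and its log2 fold change was 0.15 without MOTS-c replicate 3 and 0.63 without MOTS-c replicate 2. Strada read 11.48 and 11.64 against 11.87 and 11.80. A second Strada probe had a log2 fold change of -0.03. The lowest were Sesn3, a stress-induced sestrin, at -0.22 (SE 0.15) with the MOTS-c arrays below, and Tab1, which partners the kinase TAK1, at -0.11 (SE 0.13) with overlap. With 1 array left out, Sesn3 ranged from -0.35 without scrambled replicate 2 to -0.09 without scrambled replicate 1, and Tab1 from -0.17 without scrambled replicate 1 to -0.04 without scrambled replicate 2. The limma adjusted p-values of these 4 genes were 0.695 for Strada, 0.741 for Ppm1e, 0.783 for Sesn3 and 0.880 for Tab1.

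The second list held 12 kinases related to AMPK, most of which are also activated by LKB1. All 12 were tested, and 3 were lower and 0 higher without overlap, against 18.6% and 19.4% of all probes, with a median of 0.01. Nuak2 read 10.36 and 10.43 with scrambled and 10.09 and 10.06 with MOTS-c. Its MOTS-c arrays lay clearly below, and the log2 fold change was -0.32 (SE 0.12), with an unadjusted p of 0.048 and an adjusted p of 0.627 (limma). With the 75th percentile shift the unadjusted limma p was 0.055. With 1 array left out, the Nuak2 value ranged from -0.36 without scrambled replicate 1 to -0.28 without scrambled replicate 2. Brsk1 was at -0.25 (SE 0.16, limma adjusted p = 0.762), also without overlap, and its second probe was at -0.28. The Brsk1 value was -0.39 without MOTS-c replicate 2 and -0.11 without MOTS-c replicate 3. The highest values were 0.15 for Snrk and 0.12 for Mark1, both with overlap, and the Mark1 value was -0.01 without scrambled replicate 2. The Snrk value was 0.03 without MOTS-c replicate 2 and 0.26 without scrambled replicate 1.

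The third list held 19 substrates in lipid, glucose, growth and autophagy control. All 19 were tested, with 1 higher and 4 lower without overlap, against 19.4% and 18.6% of all probes, and a median of -0.02. The glycolytic regulator Pfkfb2 was the highest at 0.28 (SE 0.12, limma adjusted p = 0.687), reading 10.51 and 10.45 against 10.71 and 10.81, although its other two probes were at -0.21 and 0.06. Pfkfb3, of the same enzyme family, was the lowest at -0.25 (SE 0.12, limma adjusted p = 0.708), reading 10.42 and 10.49 against 10.26 and 10.15. The transcription factor Foxo3 was at -0.22 and the acetyl-CoA carboxylase Acacb at 0.13, both with overlap, and a second probe had the opposite sign for each, at 0.22 and -0.23. With 1 array left out, Foxo3 ranged from -0.38 without MOTS-c replicate 2 to -0.06 without MOTS-c replicate 3.

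The fourth list held 15 partners and targets of PGC-1 coactivators, of which 14 were tested. Of these, 3 were higher and 5 lower without overlap, against 19.4% and 18.6% of all probes, with a median of 0.02. The deacetylase Sirt1 was at 0.39 (SE 0.25) and the nuclear receptor Esrrg at 0.38 (SE 0.28), with limma adjusted p-values of 0.766 and 0.793. A second probe was at 0.44 for Sirt1 and at 0.52 for Esrrg. In the followed probes of both genes the groups overlapped and MOTS-c replicate 3 gave the highest value, 11.94 for Sirt1 and 10.98 for Esrrg. Without that array the log2 fold changes were 0.10 for Sirt1 and 0.02 for Esrrg, and without MOTS-c replicate 2 they were 0.68 and 0.74. The nuclear receptor Ppara was the lowest at -0.31 (SE 0.18, limma adjusted p = 0.744), and the coactivator Pprc1 was at -0.20 (SE 0.12, limma adjusted p = 0.758), both without overlap. A second probe was at -0.47 for Pprc1 and at -0.11 for Ppara. The Ppara value was -0.47 without MOTS-c replicate 2 and -0.15 without MOTS-c replicate 3.

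**Figure D4:**
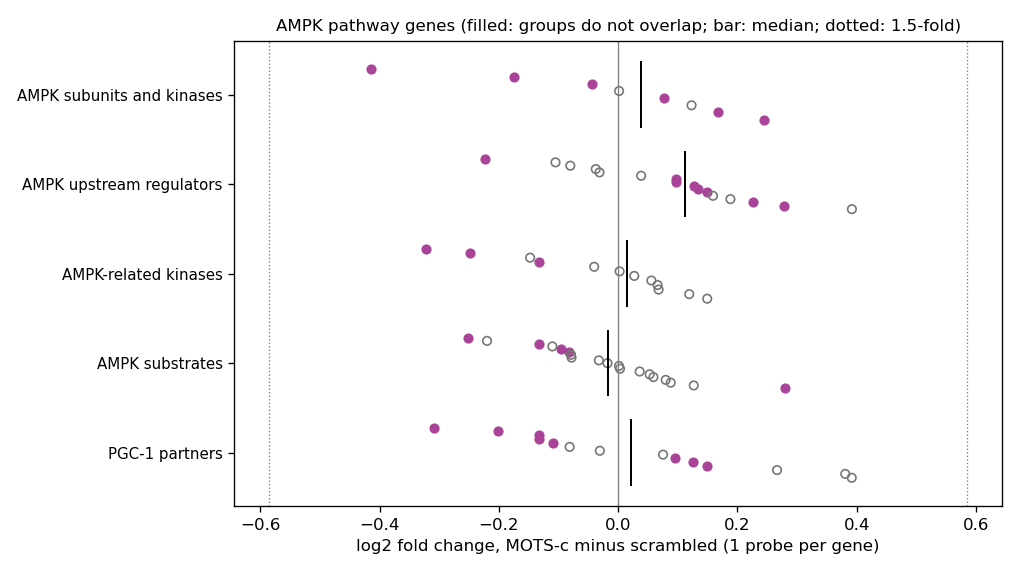
Log2 fold change of MOTS-c against scrambled for the followed probe of each tested gene, in the member genes and the 4 pathway lists; filled points have groups that do not overlap, bars are medians and dotted lines mark 1.5-fold. All genes lie between the dotted lines, and the medians lie between -0.02 for the substrates and 0.11 for the upstream regulators.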

How the data were processed

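Total RNA of islet cells was amplified, labeled with Cy3, hybridized to Agilent mouse gene expression arrays and read with Feature Extraction by the authors. The intensity they deposited for each spot is background corrected but carries no normalization across arrays. Another deposited table holds the same intensity values rounded. Median spot and local background intensities from the scanner files gave the ratios to background.

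Outlier spots and the 3671 control spots of each array were removed. The deposited intensities were put on the log2 scale and averaged by probe. A probe was kept if flagged well above background on 2 or more arrays, and quantile normalization followed. limma (version 3.58.1, R 4.3.3) compared MOTS-c with scrambled with Benjamini-Hochberg adjustment over all 35087 probes, with 2 residual and 2.64 prior degrees of freedom. The authors' methods name a t-test and a filter on Flag A, which they do not define. Symbols came from accessions matched to the gene table of GRCm38.p6, which named 32994 probes. Promoters came from RefSeq, on the same assembly, and all 10 members matched.

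All members are described with every probe, and of each pathway list the 2 genes with the highest and the 2 with the lowest log2 fold change. The coactivator Ppargc1b is given beyond this rule, as are the Y-linked genes and Xist. Acinar markers are named after their values were seen. Members and lists were chosen with earlier results of these data known. The alternatives were a shift by the 75th percentile, normexp with an offset of 50 on median signals, the rounded table, no or a strict filter, each array left out, limma with a trend, the methods' t-test, and the mean over the probes of a gene. The number of arrays limits the precision, and p-values measure the spread between these samples. The steps were tested on simulated data.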

Additional observations from a re-analysis of the deposited data

How the results depend on the processing

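The count of 0 member probes at an adjusted p under 0.05 held under all alternatives, with adjusted p-values of at least 0.312. The count of 2 at an unadjusted p under 0.05 was 1 with the 75th percentile shift (Camkk2) and 4 with normexp, which added Prkab2 and a second Camkk2 probe, and it was 0 to 1 with 1 array left out, the 1 being a Prkag3 probe without scrambled replicate 2. The count of 1 pathway gene was 0 with the 75th percentile shift, 4 with normexp and 0 to 4 with 1 array left out, the 4 without MOTS-c replicate 2. With another normalization, background correction, table or filter, the log2 fold change of Camkk2 A_55_P2329923 was -0.44 to -0.41 and that of Prkab1 A_55_P2182700 was 0.34 to 0.43. The log2 fold change of Prkag3 turned to -0.00914 with no filter on dim probes and ranged from -0.0747 to 0.0849 with 1 array left out (-0.0532 without scrambled replicate 1, and the lowest without MOTS-c replicate 2). That of Mark1 ranged from -0.00856 to 0.248 and that of Acacb from -0.0440 to 0.299 with 1 array left out, the lowest without scrambled replicate 2 in both. As a mean over all tested probes, Acacb was at -0.0497 and Foxo3 at 0.00136. The cause of these shifts was not tested. The detected member genes were 8 with the positive and significant flag and 7 when every probe had to be detected. Over all probes, the methods' t-test called 1 at an adjusted p under 0.05, and limma with any other setting called 0. No paired analysis was possible because the groups share fewer than 2 replicate numbers. With signals at background, these arrays give no fold change for Prkaa2 and Ppargc1a and an imprecise one for Prkag3.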
